A study of Mus musculus with 27 samples.

Results

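RNA sequencing libraries of 3 mouse thyroid tumor cell lines carrying Braf(V600E) and given vehicle were set against 3 libraries labelled wildtype and untreated, and the comparison was read across all genes. These are 6 of the 27 libraries of the series, chosen by their genotype and treatment labels. The remaining 21 are tumor lines that also lack Arid1a, Arid2 or Smarcb1, or lines given the RAF/MEK inhibitor CKI. The Braf lines (B47275, B48051 and B52482) were derived from dissociated tumors, grown in culture with serum and given the vehicle of the inhibitor, which the labels name as 40% Trappsol. The treatment text also mentions bovine TSH, and its wording leaves unclear whether the vehicle cultures had it. The wildtype libraries (WT_72246, WT_72248 and WT_72252) are labelled with no treatment, and their source field reads as a tumor line, as for every other library. Against that field, their counts held much Tg and also muscle, fat and parathyroid RNA, given below, which the Braf lines nearly lacked. Genotype and vehicle differ together between the groups, as may tumor origin and growth in culture. Their parts in any rise or fall below cannot be told apart. The promoter or Cre that switches on the Braf allele, the age of the mice and whether animals were pooled are not stated in the labels. Each library has its own line or sample identifier. The p-values below measure only the spread between libraries within a group, estimated over these 6 and 9 knockout vehicle lines together.

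The thyroid follicle makes hormone by iodinating thyroglobulin, which is stored outside the cell, taken back up and digested in lysosomes. TSH acts through its receptor and cyclic AMP to keep the genes of this work on, together with the transcription factors Pax8, Nkx2-1, Foxe1 and Hhex. Braf(V600E) is a constantly active kinase of the MAP kinase pathway and is the most frequent driver of papillary thyroid cancer, in which iodide handling is often lost.

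The libraries held between 18417255 and 22138360 counted reads. Thyroglobulin (Tg) alone took 24.6%, 20.7% and 29.0% of the counts in the wildtype libraries, against at most 0.000766% in the Braf lines, where mt-Co1 or Spp1 had the most reads. In the Braf lines 12089 to 12397 genes reached 1 CPM (a count scaled to the size of the library), against 13959 to 14114 genes in wildtype. Log2 CPM correlated across genes at 0.896 to 0.939 between Braf lines and at 0.977 to 0.988 between wildtype libraries, so the lines varied more among themselves. Female-specific Xist was at 881, 0.198 and 0.198 CPM in the Braf lines and at 1.94, 1.51 and 688 CPM in wildtype, and Y-linked Ddx3y at 0, 34.4 and 109.7 CPM in Braf lines against 77.1, 79.9 and 0.0541 CPM in wildtype, so each group had 1 library of female pattern and 2 of male pattern. Braf itself was read at 48.2, 43.3 and 49.9 CPM in the Braf lines and 68.6, 55.5 and 86.1 CPM in wildtype (log2 change -0.57 ± 0.17, adjusted p = 0.0165), and counts per gene do not show the point mutation. The Braf call did not hold without B48051, WT_72246 or WT_72252, with an adjusted p of 0.0564, 0.0621 and 0.154.

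Levels below are CPM scaled by TMM, in the order B47275, B48051, B52482 for Braf lines and WT_72246, WT_72248, WT_72252 for wildtype. Log2 changes are Braf lines over wildtype with their standard error, and the adjusted p is that of edgeR's quasi-likelihood test with Benjamini-Hochberg adjustment over 16065 tested genes (3 libraries a group, fitted with 9 knockout vehicle lines). A gene is called where this p is under 0.05. Of the genes tested, 7644 (47.6%) were called, 3638 higher (22.6%) and 4006 lower (24.9%) in the Braf lines. With at least a 4-fold change, 1114 genes (6.93%) were higher and 2463 (15.3%) lower. Without TMM, on total counts alone, 59% of the calls were higher, against 47.6% of the calls with it, and the median log2 change of all genes was 0.195, against -0.046 with TMM. Counts of list members are read against these shares. Where no member of a list was called in a direction, edgeR gave none an unadjusted p under 0.05 in that direction and DESeq2 called none, apart from the exceptions named beside the count.

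Of the genes that make thyroid hormone, 9 of 10 tested fell and none rose, against 24.9% of all genes lower. The transcript of thyroglobulin (Tg), the protein on which the hormone is built, was at 7.12, 1.59 and 1.48 CPM in Braf lines, against 280300, 226800 and 346600 CPM in wildtype (log2 change -16.35 ± 1.77, adjusted p = 3.06e-05). Iyd, the deiodinase that recycles iodide from iodotyrosines, had no read in any Braf line, against 880.0, 861 and 879 CPM in wildtype. It was at least 18300-fold lower, with 3 counts over the 3 Braf lines together taken as the floor. Dio1, which turns T4 into active T3, likewise had no read, against 714, 699 and 539.8 CPM in wildtype, at least 13700-fold lower.

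Genes for the hydrogen peroxide used in hormone synthesis fell too. Duox2, the main oxidase, was at 0.133, 0.0496 and 0.0989 CPM in the Braf lines and 85.99, 51.3 and 78.4 CPM in wildtype (log2 change -9.48 ± 1.08, adjusted p = 4.46e-05). Its maturation factor Duoxa2 was at 0, 0 and 0.148 CPM in Braf lines, against 46.7, 54.5 and 40.1 CPM in wildtype (adjusted p = 0.000133). The neighbouring pair of the same gene cluster, Duox1 (-2.75 ± 0.62 on the log2 scale, adjusted p = 0.00334) and Duoxa1 (-4.77 ± 0.97, adjusted p = 0.00194), also fell. The basal iodide importer Slc5a5 (NIS) was at 0.663, 0.347 and 0.247 CPM in the Braf lines, against 122, 416 and 228 CPM in wildtype (log2 change -9.22 ± 0.81, adjusted p = 7.47e-06). Dio2, the activating deiodinase that is also found outside the thyroid, was at 1.86, 0.645 and 7.37 CPM in Braf lines, against 14.97, 25.1 and 15.8 CPM in wildtype, and did not pass (log2 change -2.5 ± 1.39, adjusted p = 0.156). Its highest line, B52482, was below every wildtype library. The chloride and iodide exchanger Slc26a4 (pendrin) was too low to test, at 0 to 0.0885 CPM in the Braf lines and 0 to 0.541 CPM in wildtype.

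**Figure D1:**
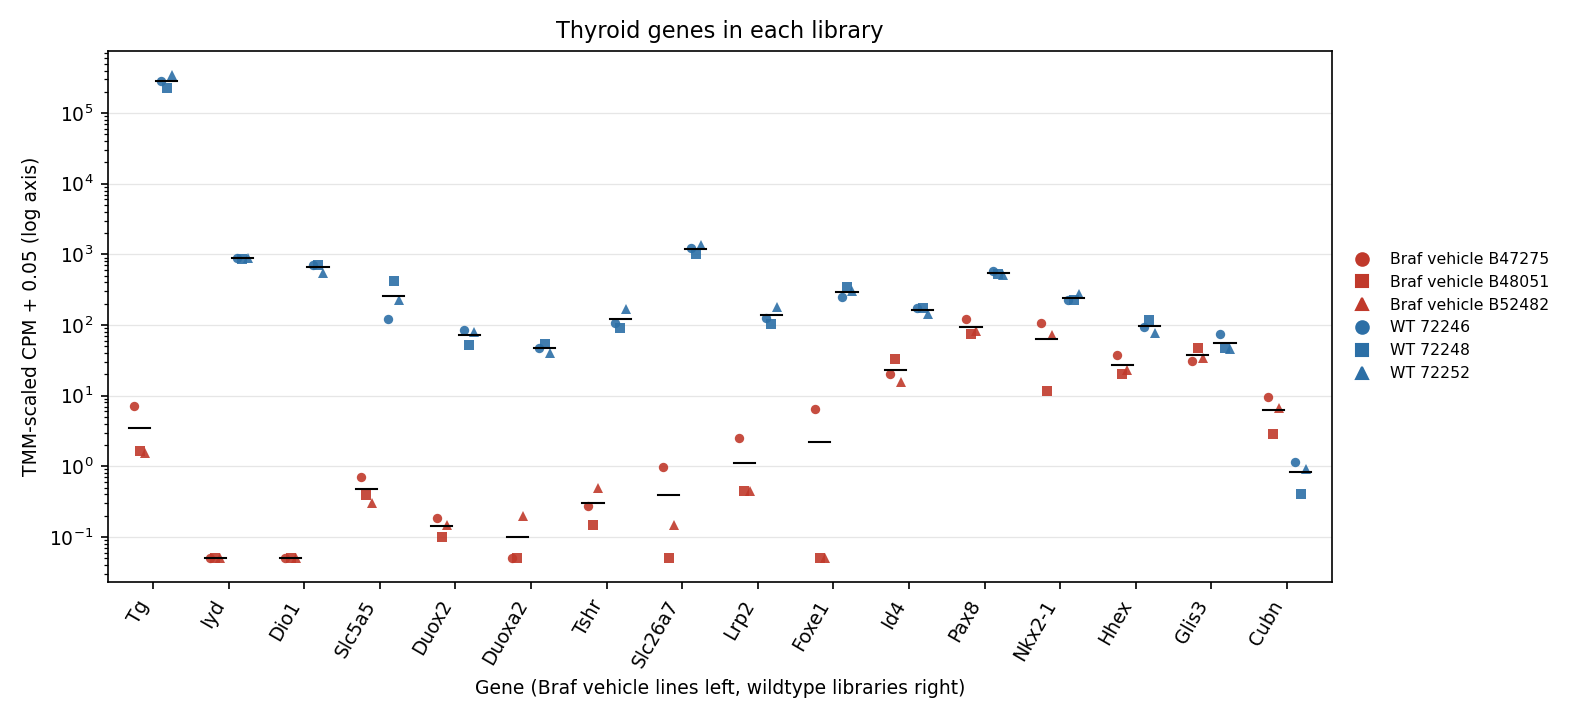
Thyroid genes in each library, as TMM-scaled CPM plus 0.05 on a log axis, with the 3 Braf vehicle lines in red on the left and the 3 wildtype libraries in blue on the right of each gene and bars at the group means. Tg, Iyd, Dio1 and Slc26a7 stand orders of magnitude apart between the groups, while Glis3 overlaps and Cubn is higher in the Braf lines.

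Of the transcription factors, hormone carriers and TSH signalling genes in the regulator list, 8 of 14 were lower and none higher. The count lower was 5 without B48051 or B52482 and 4 without WT_72246 or WT_72252. Tshr, the TSH receptor, was at 0.221, 0.0992 and 0.445 CPM in the Braf lines, against 105, 89.2 and 170.3 CPM in wildtype (log2 change -8.87 ± 1.26, adjusted p = 0.000207). Foxe1 kept reads in 1 line, at 6.46, 0 and 0 CPM in Braf lines, against 247, 340.3 and 304 CPM in wildtype (log2 change -7.09 ± 1.64, adjusted p = 0.00555); without B47275 the remaining lines held none and the fitted change was -15.65. Pax8 was at 122, 75.5 and 82.1 CPM in Braf lines, against 581, 524 and 502 CPM in wildtype (log2 change -2.52 ± 0.97, adjusted p = 0.0483). The Pax8 groups did not overlap, but its call rested on every library: leaving out any of the 6 gave an adjusted p between 0.0824 and 0.119. Nkx2-1 was at 107, 11.7 and 71.8 CPM in Braf lines, against 223, 229 and 274 CPM in wildtype (log2 change -1.93 ± 0.76, adjusted p = 0.052), and passed without B47275 (-2.52, adjusted p = 0.0379). Line B48051 held the least Nkx2-1. Hhex (38.1, 20.4 and 22.9 CPM in Braf lines against 93.8, 116 and 76.2 CPM in wildtype, adjusted p = 0.152) and Glis3, a zinc finger factor of thyroid and pancreas (30.4, 46.9 and 34.1 CPM in Braf lines against 75.5, 46.6 and 46.3 CPM in wildtype, adjusted p = 0.498), were not called. Pax8, Nkx2-1, Hhex and Glis3 thus kept at least 11.7 CPM in every line.

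The carriers and receptors of thyroid hormone also fell in part. Slc16a10, a carrier of aromatic amino acids and thyroid hormone, was at 3.49, 1.64 and 2.72 CPM in Braf lines against 19, 13.5 and 19.5 CPM in wildtype (log2 change -2.72 ± 0.89, adjusted p = 0.0241), a call that did not hold without B48051 (-2.46, adjusted p = 0.076), B52482 (-2.74, 0.0604), WT_72246 (-2.58, 0.0577) or WT_72252 (-2.55, 0.0576). Thra, the alpha hormone receptor, was at 24.8, 13.8 and 31.5 CPM in Braf lines against 77.1, 83.8 and 66.2 CPM in wildtype (log2 change -1.7 ± 0.39, adjusted p = 0.00377). Thrb overlapped between groups, at 42.2, 3.97 and 6.83 CPM in Braf lines against 24.8, 24.4 and 46.8 CPM in wildtype (adjusted p = 0.544). Gnas, the stimulatory G protein that couples the TSH receptor to adenylate cyclase, overlapped at 11.4, 11.6 and 13.5 CPM in the Braf lines and 9.89, 15.5 and 16.9 CPM in wildtype (log2 change -0.21 ± 0.31, adjusted p = 0.593). The cyclic AMP phosphodiesterase gene Pde8b overlapped as well (1.02, 0.744 and 14.6 CPM in Braf lines against 3.35, 2.11 and 2.38 CPM in wildtype, adjusted p = 0.644). The adenylate cyclase genes Adcy6 (-0.82 ± 0.25, adjusted p = 0.0193) and Adcy9 (-1.02 ± 0.38, adjusted p = 0.0407) passed with small changes. Adcy6 missed the threshold without B47275, WT_72246, WT_72248 or WT_72252 (adjusted p up to 0.075), and Adcy9 without B47275, B48051, B52482, WT_72246 or WT_72252 (adjusted p up to 0.249).

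Among thyroid-enriched genes that are less studied, 8 of 20 tested fell and 3 rose, with 1 rise when any 1 wildtype library was left out. Slc26a7, a chloride and iodide transporter whose loss causes goiter, was at 0.929, 0 and 0.0989 CPM in the Braf lines and 1217, 1024 and 1360 CPM in wildtype (log2 change -11.71 ± 1.76, adjusted p = 0.000299). Slc5a8, a monocarboxylate transporter first described at the apical thyroid membrane, was at 1.11, 1.79 and 0.495 CPM in Braf lines against 112, 89.5 and 106 CPM in wildtype (log2 change -6.5 ± 0.56, adjusted p = 6.31e-06). The endocytic receptor gene Lrp2 (megalin), which takes up thyroglobulin, was at 2.43, 0.397 and 0.396 CPM in Braf lines against 126, 102 and 182 CPM in wildtype (log2 change -6.97 ± 1.16, adjusted p = 0.000546). Its partner Cubn went the other way, at 9.51, 2.83 and 6.58 CPM in the Braf lines against 1.099, 0.352 and 0.865 CPM in wildtype (log2 change 3.02 ± 0.6, adjusted p = 0.00161), with no overlap. Id4, an inhibitor of helix-loop-helix factors, fell to 20.5, 33.1 and 15.4 CPM in Braf lines, against 176, 174 and 141 CPM in wildtype (log2 change -2.83 ± 0.58, adjusted p = 0.00198). Stxbp5l, a vesicle-docking regulator, was near 0 in every Braf line, at 0, 0.0992 and 0 CPM in Braf lines against 3.297, 2.11 and 3.19 CPM in wildtype (adjusted p = 0.00153).

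Among the Braf lines, B48051 held the highest levels of several members of this list. The cadherin gene Cdh16, a thyroid and kidney epithelial marker, was at 0.796, 115 and 0.0495 CPM in Braf lines, against 729.7, 573 and 719.8 CPM in wildtype, and missed the threshold (log2 change -4.13 ± 1.66, adjusted p = 0.0575); without B48051 it passed (-10.58, adjusted p = 0.000136). Kcnj16, an inward rectifier of epithelia, was at 3.096, 39.98 and 0.0495 CPM in Braf lines, against 199.8, 212 and 242 CPM in wildtype (log2 change -3.92 ± 1.25, adjusted p = 0.022); the change was -7.08 without B48051, and the adjusted p was 0.0652 without B47275. Ipcef1 showed the same order, at 0.0885, 4.07 and 0 CPM in Braf lines against 17.9, 21.7 and 21.03 CPM in wildtype (adjusted p = 0.0671), and passed without B48051 (-8.60, adjusted p = 0.00237). Cwh43 had reads in B47275 and B48051 (0.619, 13.04 and 0 CPM over the 3 lines) and none in wildtype, and was not tested. The bicarbonate cotransporter gene Slc4a4 spread across both sides of wildtype, at 34.4, 226 and 6.33 CPM in Braf lines against 75.7, 79.3 and 114 CPM in wildtype (adjusted p = 0.996). Of the same list, Ecm1, Matn2, Sorbs2, Fhl1, Pla2r1 and Pkhd1l1 did not pass (adjusted p between 0.0625 and 0.802), of which Fhl1 and Pla2r1 passed without B47275 (-5.82 and -3.04, adjusted p = 0.0205 and 0.0102). Some calls did not hold with a library left out. Kcnq1 (3.56 ± 1.18, adjusted p = 0.0261) and Ano1 (3.43 ± 1.28, adjusted p = 0.0432) were higher in the Braf lines on the log2 scale with all libraries, and Cftr (-2.21 ± 0.76, adjusted p = 0.0304) and Wscd2 (-3.71 ± 1.36, adjusted p = 0.0399) were lower. Ano1 and Wscd2 missed the threshold without any 1 of the 6 libraries (adjusted p up to 0.115 and 0.14). Cftr missed it without any library but B47275 (up to 0.104), and Kcnq1 without B52482 or any 1 wildtype library (up to 0.1).

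The lysosomal proteases that release hormone from thyroglobulin were listed with the lysosomal membrane proteins Lamp1 and Lamp2. This list moved both ways: 3 of 15 rose and 3 fell, with a median log2 change of -0.20. Cathepsin genes Ctsb (1231, 573 and 2214 CPM in Braf lines against 919.9, 1010 and 885 CPM in wildtype, adjusted p = 0.327) and Ctsl (559, 894 and 1617 CPM in Braf lines against 674, 829 and 675 CPM in wildtype, adjusted p = 0.47) overlapped between groups. Cathepsin D (Ctsd) was modestly higher, at 1669, 2657 and 2379 CPM in Braf lines against 1057, 1135 and 1046 CPM in wildtype (log2 change 1.05 ± 0.31, adjusted p = 0.0149). Ctss, which macrophages and other antigen-presenting cells also express, was at 0.133, 0.0992 and 0 CPM in the Braf lines, against 43.5, 69.5 and 51.3 CPM in wildtype (log2 change -9.34 ± 0.82, adjusted p = 2.16e-05). Ctsk, also an osteoclast and fibroblast protease, was at 0.0885, 0.0496 and 0.148 CPM in Braf lines against 24.4, 31.5 and 13.6 CPM in wildtype (log2 change -7.84 ± 0.7, adjusted p = 8.25e-06). Selenoproteins other than the deiodinases split likewise, with 3 of 17 higher and 5 lower. The secreted glutathione peroxidase gene Gpx3 fell to 1.73, 3.47 and 0.594 CPM in Braf lines, against 334, 569.8 and 332 CPM in wildtype (log2 change -7.73 ± 0.81, adjusted p = 2.53e-05). The selenium carrier gene Sepp1 fell to 11.4, 2.28 and 20.4 CPM in Braf lines, against 562, 637 and 353 CPM in wildtype (log2 change -5.51 ± 1.39, adjusted p = 0.00654). Thioredoxin reductase Txnrd1 was higher, at 264, 389 and 252 CPM in Braf lines against 111, 115 and 118 CPM in wildtype (log2 change 1.39 ± 0.36, adjusted p = 0.00818).

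Most genes of cell division rose, and the parts of genotype and of growth in culture in this cannot be told apart. In the centromere and kinetochore list, 35 of 38 tested members rose (92.1%, against 22.6% of all genes) and 1 fell, with a median log2 change of 3.06. The checkpoint kinase gene Bub1 was at 49.98, 60.9 and 41.3 CPM in the Braf lines, against 0.366, 0.352 and 0.378 CPM in wildtype (log2 change 7.09 ± 0.32, adjusted p = 1.15e-07). Cenpf, a kinetochore protein of late G2 and mitosis, was at 136, 122 and 91.4 CPM in Braf lines against 0.994, 0.452 and 2.38 CPM in wildtype (log2 change 6.52 ± 0.52, adjusted p = 3.38e-06). The checkpoint kinase gene Ttk was at 19.6, 15.97 and 15.1 CPM in Braf lines against 0.471, 0.101 and 0.216 CPM in wildtype (log2 change 5.98 ± 0.44, adjusted p = 2.04e-06). For these genes the highest wildtype library stayed far below the lowest Braf line. The exception was Zw10, a checkpoint factor that also serves membrane traffic, which was lower in the Braf lines at 34.01, 22.3 and 23.1 CPM in Braf lines, against 49.7, 53.4 and 64.2 CPM in wildtype (log2 change -1.07 ± 0.17, adjusted p = 0.000437).

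Replication genes followed, with 36 of 43 higher (median log2 change 1.74). Pole, the catalytic subunit of the leading-strand polymerase, was at 66.7, 56.5 and 44.03 CPM in Braf lines against 0.6804, 0.704 and 1.89 CPM in wildtype (log2 change 5.67 ± 0.45, adjusted p = 3.03e-06). Claspin (Clspn), which carries the checkpoint signal at forks, was at 24.1, 12.2 and 17.7 CPM in Braf lines against 0.523, 0.452 and 0.919 CPM in wildtype (log2 change 4.82 ± 0.44, adjusted p = 8.94e-06). The helicase subunit gene Mcm5 was at 102, 70.9 and 56.8 CPM in Braf lines against 6.38, 6.58 and 9.41 CPM in wildtype (log2 change 3.36 ± 0.34, adjusted p = 1.94e-05). Geminin (Gmnn), the inhibitor of origin licensing that is normally made in S and G2, ran against its list at 16.8, 14.8 and 9.004 CPM in the Braf lines and 47.8, 44.9 and 40.4 CPM in wildtype (log2 change -1.71 ± 0.29, adjusted p = 0.000565). The geminin groups did not overlap.

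Chromosome structure and repair genes rose in the same libraries. Among condensin and cohesin genes 14 of 20 rose, such as Ncapg (30.6, 31.6 and 20.8 CPM in Braf lines against 0.262, 0.452 and 0.432 CPM in wildtype, log2 change 6.16 ± 0.34, adjusted p = 3.32e-07). Ncaph2 of condensin II fell slightly (131, 147 and 107 CPM in Braf lines against 235, 255 and 218 CPM in wildtype, log2 change -0.88 ± 0.15, adjusted p = 0.000713). Of homologous recombination and Fanconi genes 22 of 29 rose, among them Brca1 (32.8, 34.2 and 18.1 CPM in Braf lines against 1.26, 0.804 and 1.78 CPM in wildtype, log2 change 4.46 ± 0.37, adjusted p = 4.68e-06). Nucleotide synthesis counted 16 of 23 higher. The ribonucleotide reductase subunit gene Rrm2 was at 108, 64.6 and 45.8 CPM in Braf lines against 1.31, 1.66 and 1.68 CPM in wildtype (log2 change 5.55 ± 0.44, adjusted p = 3.15e-06). Its alternative subunit gene Rrm2b, used outside S phase, was lower, at 27.1, 30.4 and 30.4 CPM in Braf lines against 64.3, 59.5 and 49.9 CPM in wildtype (log2 change -0.98 ± 0.19, adjusted p = 0.00161).

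Among cyclins, CDK inhibitors and pocket proteins 19 of 32 rose. The mitotic cyclin gene Ccnb1 was at 71.5, 79.7 and 48.04 CPM in the Braf lines and 0.366, 0.452 and 0.757 CPM in wildtype (log2 change 6.97 ± 0.39, adjusted p = 3.32e-07). Of the cell cycle inhibitors, Cdkn1a and Cdkn2a rose. Cdkn1a (p21) was at 631, 465 and 429.9 CPM in the Braf lines, against 20.4, 40.96 and 27.1 CPM in wildtype (log2 change 4.11 ± 0.35, adjusted p = 6.35e-06). The Cdkn2a locus, which encodes p16 and Arf, was at 28.1, 69.8 and 30.8 CPM in Braf lines against 1.31, 1.41 and 0.703 CPM in wildtype (log2 change 5.22 ± 1.24, adjusted p = 0.0047). Counts per gene do not separate p16 from Arf. Cdkn1b (p27) was not called, at 94.7, 60.5 and 51.95 CPM in Braf lines against 116, 105 and 112 CPM in wildtype (adjusted p = 0.0849), though it passed without B47275 (-0.97, adjusted p = 0.0317).

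The p53 list rose widely, 16 of 22 tested, with none lower and a median log2 change of 2.05. That list counts Trp53 itself and Mdm4 beside p53 targets. Eda2r, a receptor of the TNF receptor family, was even within each group, at 135, 108 and 139 CPM in the Braf lines against 2.67, 3.42 and 3.68 CPM in wildtype (log2 change 5.29 ± 0.2, adjusted p = 6.83e-08). Mdm2, the ubiquitin ligase that limits p53, was at 244, 455 and 178 CPM in Braf lines against 41.5, 40.0 and 45.95 CPM in wildtype (log2 change 2.78 ± 0.45, adjusted p = 0.000489). The pro-death genes Bax (197, 244 and 152 CPM in Braf lines against 39.1, 47.1 and 35.03 CPM in wildtype, log2 change 2.29 ± 0.22, adjusted p = 1.21e-05) and Pmaip1 (96.03, 236 and 25.8 CPM in Braf lines against 0.523, 2.81 and 1.68 CPM in wildtype, log2 change 6.15 ± 0.97, adjusted p = 0.000404) were higher in every Braf line than in every wildtype library. Perp (179.7, 467 and 134 CPM in Braf lines against 64.1, 78.8 and 58.98 CPM in wildtype, adjusted p = 0.15) and Sesn1 (47.1, 10.8 and 24.9 CPM in Braf lines against 111, 88.3 and 113 CPM in wildtype, adjusted p = 0.103) were not called, and the Sesn1 values were lower in each Braf line.

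**Figure D2:**
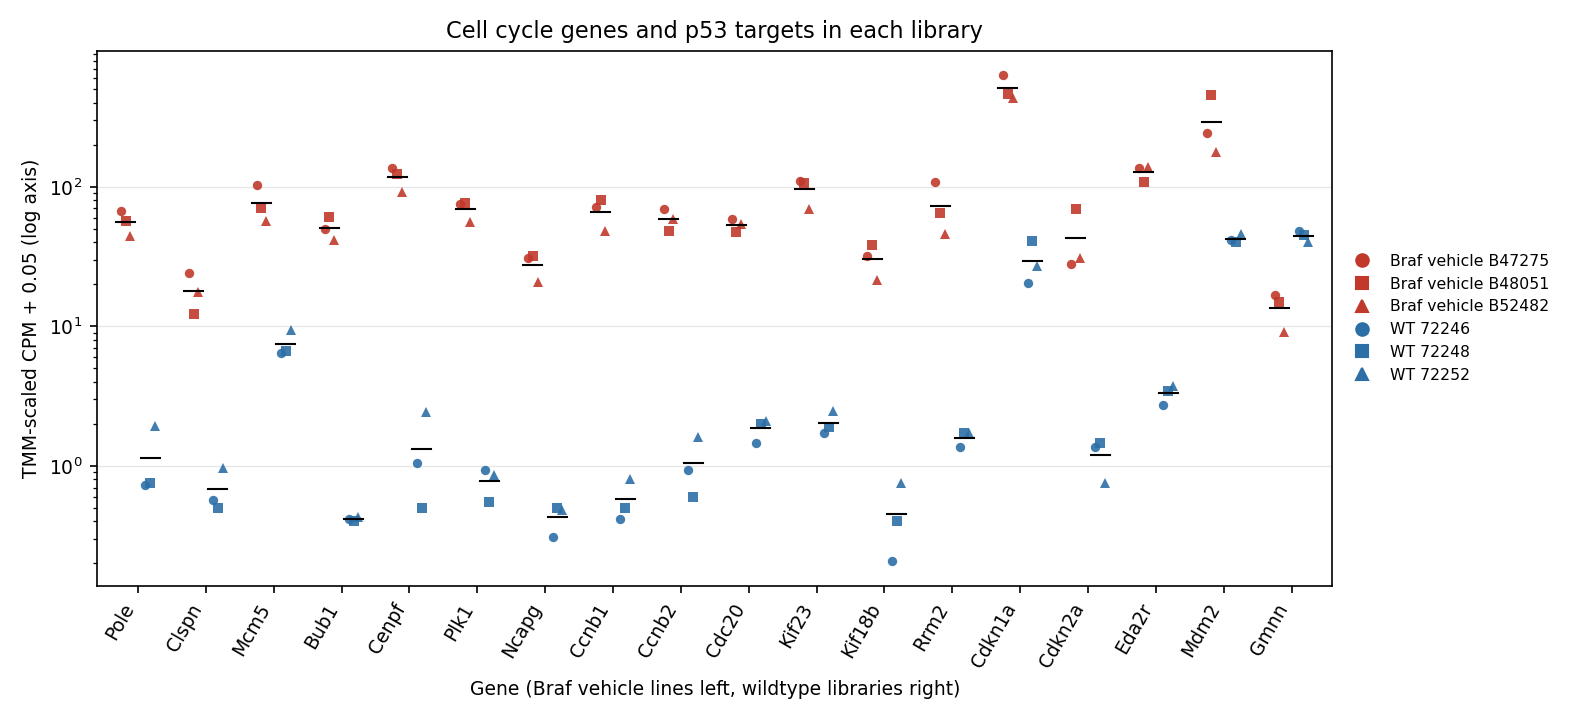
Cell cycle genes and p53 targets in each library, as TMM-scaled CPM plus 0.05 on a log axis, Braf vehicle lines in red on the left and wildtype in blue on the right of each gene, bars at group means. Bub1 is at 41.3 CPM or more in the Braf lines and at 0.378 CPM or less in wildtype, the inhibitors Cdkn1a and Cdkn2a are higher in the Braf lines too, and Gmnn is the exception that is lower.

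The motor proteins of the spindle moved with this group. Of 38 tested kinesins 20 rose and 6 fell, with 3 falls without B52482 and 1 without WT_72246 or WT_72252. Among the mitotic motors that rose, Kif18b, which shortens microtubule plus ends, was at 31.7, 38.4 and 21.5 CPM in Braf lines against 0.157, 0.352 and 0.703 CPM in wildtype (log2 change 6.23 ± 0.45, adjusted p = 1.69e-06). Kif23, of the midzone, was at 111, 107 and 68.97 CPM in Braf lines against 1.68, 1.86 and 2.43 CPM in wildtype (log2 change 5.58 ± 0.57, adjusted p = 1.94e-05). Kif20a, of cytokinesis, was at 102, 89.8 and 83.02 CPM in Braf lines against 1.94, 1.21 and 1.51 CPM in wildtype (log2 change 5.88 ± 0.25, adjusted p = 1.08e-07). Kifc2, a motor best known from neurons, was lower, at 3.32, 4.91 and 2.33 CPM in Braf lines against 12.2, 10.7 and 14.8 CPM in wildtype (log2 change -1.84 ± 0.4, adjusted p = 0.0027). Tubulin genes showed 9 of 16 higher. The broadly expressed Tubb5 rose (1085, 645 and 932 CPM in Braf lines against 155, 179.7 and 173 CPM in wildtype, log2 change 2.39 ± 0.22, adjusted p = 1.01e-05), as did Tubb6 (310.5, 350.4 and 585 CPM in Braf lines against 31.9, 35.5 and 39.2 CPM in wildtype, log2 change 3.54 ± 0.37, adjusted p = 2.21e-05). Most replication histone transcripts lack a poly(A) tail, and 20 of 70 histone genes were tested, of which 6 rose.

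The promoters of Ccnb2, Cdc20, Kif18b and Kif23, mitotic genes that rose, are shown as examples picked by hand. That of Slc5a5 stands beside them as a gene that fell. Each is 250 bases before to 50 bases after the gene's start, from RefSeq on GRCm38.p6, 5′ to 3′ on the gene's strand, with TTTGAA (the core of the cell cycle homology region) and CCAAT (the box that NF-Y binds) in capitals, read on both strands. The windows are Ccnb2 chr9:70421505-70421804 on the minus strand, Cdc20 chr4:118437294-118437593 on the minus strand, Kif18b chr11:102925075-102925374 on the minus strand, Kif23 chr9:61946750-61947049 on the minus strand and Slc5a5 chr8:70892708-70893007 on the minus strand.
Ccnb2: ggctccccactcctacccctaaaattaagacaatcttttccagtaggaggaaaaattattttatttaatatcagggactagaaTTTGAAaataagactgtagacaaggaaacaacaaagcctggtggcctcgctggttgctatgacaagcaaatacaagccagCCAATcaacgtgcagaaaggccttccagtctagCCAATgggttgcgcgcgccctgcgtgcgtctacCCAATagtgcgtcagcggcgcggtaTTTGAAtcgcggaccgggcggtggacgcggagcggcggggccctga
Cdc20: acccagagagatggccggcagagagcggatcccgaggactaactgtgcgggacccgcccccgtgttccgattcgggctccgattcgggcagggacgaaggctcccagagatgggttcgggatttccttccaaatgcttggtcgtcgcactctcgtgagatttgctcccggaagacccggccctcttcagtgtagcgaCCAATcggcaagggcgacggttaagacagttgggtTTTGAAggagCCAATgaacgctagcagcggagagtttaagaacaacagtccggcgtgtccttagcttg
Kif18b: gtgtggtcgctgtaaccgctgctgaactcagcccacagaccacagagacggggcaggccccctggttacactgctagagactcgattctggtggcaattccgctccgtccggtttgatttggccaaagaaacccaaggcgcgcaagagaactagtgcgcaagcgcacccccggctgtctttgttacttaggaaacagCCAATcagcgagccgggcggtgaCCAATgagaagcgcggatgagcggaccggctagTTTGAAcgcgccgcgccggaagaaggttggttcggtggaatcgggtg
Kif23: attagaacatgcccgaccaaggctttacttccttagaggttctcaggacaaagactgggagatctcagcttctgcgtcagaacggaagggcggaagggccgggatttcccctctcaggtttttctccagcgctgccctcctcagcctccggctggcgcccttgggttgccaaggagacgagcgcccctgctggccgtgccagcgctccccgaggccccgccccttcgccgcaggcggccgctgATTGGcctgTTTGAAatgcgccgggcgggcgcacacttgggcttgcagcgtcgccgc
Slc5a5: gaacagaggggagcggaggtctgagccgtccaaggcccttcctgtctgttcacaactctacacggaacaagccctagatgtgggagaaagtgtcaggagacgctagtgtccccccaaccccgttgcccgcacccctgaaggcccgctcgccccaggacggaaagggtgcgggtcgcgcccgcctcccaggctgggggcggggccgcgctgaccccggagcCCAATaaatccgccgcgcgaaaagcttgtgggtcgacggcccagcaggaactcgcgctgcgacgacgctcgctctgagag

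Ccnb2, a mitotic cyclin, was at 69.4, 47.9 and 58.4 CPM in the Braf lines and 0.8897, 0.553 and 1.57 CPM in wildtype (log2 change 5.86 ± 0.4, adjusted p = 1.03e-06). Cdc20, the activator of the anaphase-promoting complex, was at 58.7, 47.02 and 54.3 CPM in Braf lines against 1.41, 1.96 and 2.05 CPM in wildtype (log2 change 4.88 ± 0.4, adjusted p = 4.47e-06). Promoter windows were found for 32 of the 38 centromere and kinetochore genes, and 14 of them held TTTGAA (43.8%) and 21 held CCAAT (65.6%). Among kinesins, 14 of 30 held TTTGAA (46.7%) and 14 held CCAAT (46.7%). Replication genes held TTTGAA in 5 of 34 windows (14.7%) and CCAAT in 20 (58.8%). Over all 27025 gene symbols with a window of the same length, 20.2% held TTTGAA and 41.1% held CCAAT. Each mitotic window printed above held both TTTGAA and CCAAT, so these examples do not stand for the lists. All of these are letter matches and were not tested against the changes.

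Markers of fat, muscle, blood, vessels and myeloid cells were far lower in the Braf lines than in the wildtype libraries. No Braf line had a read of 6 of the 15 adipocyte, 1 of the 16 muscle, 2 of the 16 endothelial and 5 of the 19 myeloid markers. Summed CPM of the adipocyte list was 4.7 to 14.1 in the Braf lines, against 1620 to 5270 in wildtype, with 15 of 15 members lower. Skeletal muscle markers summed to 3.71 to 10.3 CPM in the Braf lines, against 2560 to 5330 CPM in wildtype (14 of 14 lower). The muscle myosin gene Myh4, the adipocyte protease gene Cfd and the globin gene Hbb-b1 had no read in any Braf line, and 5 of 7 red blood cell markers were lower. Blood endothelium (15 of 16 lower) summed to 8.98 to 40.4 CPM in the Braf lines, against 1120 to 1540 CPM in wildtype. Myeloid markers (17 of 19 lower and 1 higher) summed to 17.9 to 107 CPM in the Braf lines, against 740.0 to 947 CPM in wildtype. The 1 rise was not called without B48051 or without any 1 wildtype library. The macrophage complement gene C1qa had no read in any Braf line, against 63.7, 104 and 82.9 CPM in wildtype, at least 1760-fold lower in the Braf lines. Robo4, a receptor of blood vessel endothelium, likewise had no read in them, against 34.6, 26.3 and 25.6 CPM in wildtype (at least 605-fold lower). In bulk RNA, fewer cells of a type and less RNA per cell cannot be told apart.

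Fibroblast markers were lower in 12 of 16. The list's median log2 CPM was 0.26, -0.33 and 0.97 in the Braf lines, against 7.44, 7.42 and 6.73 in wildtype. Its sum was 1230, 510.0 and 1980 CPM in the Braf lines, against 7930, 8770 and 4190 CPM in wildtype, and most of the sum in each Braf line came from Cd34 and from gelsolin (Gsn), a widely expressed actin-severing protein at 576, 253 and 347 CPM in Braf lines against 3234, 4258 and 1832 CPM in wildtype (log2 change -2.99 ± 0.76, adjusted p = 0.00686). No member was called higher; the mesenchymal factor gene Twist2 had a higher value at an unadjusted p under 0.05 (1.73, 2.93 and 22.5 CPM in Braf lines against 0.8897, 1.71 and 1.297 CPM in wildtype, log2 change 2.79 ± 1.17, adjusted p = 0.0671) and was called by DESeq2 and without B47275. The matrix proteoglycan gene Dcn was at 6.81, 0.298 and 2.82 CPM in Braf lines against 1796, 1760 and 693 CPM in wildtype (log2 change -8.73 ± 1.41, adjusted p = 0.000448). Dpt, a dermal and stromal matrix protein, was at 0, 0.0496 and 0.247 CPM in Braf lines against 296, 291 and 167 CPM in wildtype (log2 change -11.27 ± 1.03, adjusted p = 9.83e-06). Cd34, which is also a marker of vessels and of some epithelial progenitors, did not follow, at 625, 244 and 1445 CPM in Braf lines against 183, 172 and 129 CPM in wildtype (adjusted p = 0.227), and was above wildtype in each line. Pericyte and smooth muscle markers were lower in 9 of 13. Rgs5, of pericytes, was at 0.133, 0.0992 and 0.445 CPM in Braf lines against 436, 426 and 239 CPM in wildtype (log2 change -10.64 ± 1.2, adjusted p = 4.1e-05). Notch3 overlapped (23.4, 96.9 and 7.96 CPM in Braf lines against 33.5, 33.4 and 27.9 CPM in wildtype, adjusted p = 0.721). Lymphatic markers were lower in 3 of 6, and their sums overlapped, at 80.7, 58 and 8.06 CPM in the Braf lines against 181, 103 and 68.8 CPM in wildtype. T and B cell markers were lower in 4 of 7 tested of 19; more of these were tested and 9 to 11 called lower without B47275, B48051, B52482 or WT_72252.

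The endocrine neighbours of the follicle were read in wildtype as well, with 7 of 12 C cell and neuroendocrine markers lower and 1 higher in the Braf lines, and 2 of 4 parathyroid markers lower. Calca, which encodes calcitonin of the C cells, was at 0.531, 1.24 and 0.445 CPM in the Braf lines, against 2851, 3344 and 1873 CPM in wildtype (log2 change -11.82 ± 1.08, adjusted p = 9.58e-06). Chga, a granule protein of neuroendocrine cells, was at 0, 0.0496 and 0 CPM in Braf lines against 389, 347 and 112 CPM in wildtype (adjusted p = 4.82e-06). Calcb, the neighbouring CGRP gene, ran the other way at 10.4, 28.7 and 5.49 CPM in the Braf lines and 0.0523, 0 and 0.108 CPM in wildtype (adjusted p = 0.00352). Parathyroid hormone (Pth) had no read in the Braf lines, against 1973, 1046 and 37.1 CPM in wildtype, so the 3 wildtype libraries differed widely in parathyroid RNA. Cartilage markers were uneven in the same way, summing to 225, 224 and 775 CPM in wildtype, where library WT_72252 stood apart, and 7 of 14 were lower and none higher in the Braf lines. Without WT_72252, 5 were lower and 2 higher, the collagen gene Col2a1 and the matrilin gene Matn3; 5 were also lower without B47275 or B48051. Cytl1, a cartilage cytokine, was at 0.0442, 0 and 0.247 CPM in Braf lines against 9.996, 7.34 and 106 CPM in wildtype (log2 change -8.66 ± 1.99, adjusted p = 0.00532). Fat also differed: adipocyte sums were 2100, 5270 and 1620 CPM in the wildtype libraries.

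Schwann cell and nerve markers were lower in 6 of 11 and higher in 1, a rise not called without B47275. They summed to 185, 104 and 200.0 CPM in the Braf lines against 439, 488 and 488 CPM in wildtype. Of the airway and stratified epithelium markers 3 of 8 tested rose and 1 fell. With 10 or 11 tested, 3 fell without B47275 or WT_72248, and 2 fell without B48051 or B52482. The sum of these markers was 283, 251 and 14.6 CPM in the Braf lines against 78.9, 79.5 and 109 CPM in wildtype, above wildtype in B47275 and B48051 and below it in B52482. Sprr1a, a cornified envelope protein of stressed epithelium, was at 252, 175 and 8.905 CPM in the Braf lines and 0.0523, 0.201 and 0.2703 CPM in wildtype (log2 change 9.66 ± 1.96, adjusted p = 0.00185). Foxj1, the factor that drives motile cilia, was at 12.4, 58.7 and 0.594 CPM in Braf lines against 0.366, 0.251 and 0.432 CPM in wildtype (log2 change 6.07 ± 1.3, adjusted p = 0.00263). The ciliary gene Tekt1 fell to 0.0442, 0 and 0 CPM in Braf lines, against 41.5, 55.9 and 48 CPM in wildtype (adjusted p = 1.44e-05). Axonemal dyneins were lower in 4 of 8 tested and higher in none, 1 having a higher value at an unadjusted p under 0.05 and DESeq2 calling none. Every fall given above and below was measured beside these sums of other cell types, and the part of those cells in the falls was not tested.

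Several of the genes with the widest ranges among the 3 Braf lines were epithelial. Cdh1 (E-cadherin) was at 743, 661 and 0.495 CPM in Braf lines, against 361, 349 and 451 CPM in wildtype. Epcam was at 239.8, 383 and 0.346 CPM in Braf lines, against 361, 369.5 and 405 CPM in wildtype. Line B52482 held almost none of either, and B47275 and B48051 held wildtype-like or higher levels. Mal2 (374, 186 and 0.198 CPM in Braf lines against 137, 123 and 124 CPM in wildtype), Mal (85.9, 341 and 0.0495 CPM in Braf lines against 147, 142 and 146 CPM in wildtype), Lad1 (76.1, 385 and 0.148 CPM in Braf lines against 15.1, 18.9 and 23.5 CPM in wildtype) and Prom2 (115, 195 and 0.0495 CPM in Braf lines against 426, 401 and 500.5 CPM in wildtype), all membrane or junction proteins of polarized epithelia, were likewise near 0 in B52482. The membrane protease gene St14 was also lowest there (244, 344 and 1.09 CPM in Braf lines against 115, 121 and 151 CPM in wildtype, adjusted p = 0.723). Vim, the mesenchymal intermediate filament, was highest where these were lowest, at 675, 13.04 and 5947 CPM in Braf lines, against 271, 316 and 206 CPM in wildtype (log2 change 3.06 ± 1.23, adjusted p = 0.0578); it passed without B48051 (3.66, adjusted p = 0.00167) and without B47275 (3.51, 0.0483). Vim was above every wildtype library in B47275 and B52482 and below every one in B48051.

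Over the 3 lines together, 0 of 21 epithelial adhesion and keratin genes rose and 2 fell by edgeR, with 1 higher at an unadjusted p under 0.05 and 1 called higher by DESeq2. Krt18 (1720, 1854 and 653 CPM in Braf lines against 156, 154 and 165 CPM in wildtype, adjusted p = 0.0713) and Krt8 (1851, 1457 and 613 CPM in Braf lines against 166, 215 and 229.5 CPM in wildtype, adjusted p = 0.171), keratins of simple epithelia, were above wildtype in each line, B52482 included, and did not pass. The factor genes Ovol1 (0.885, 2.38 and 0.445 CPM in Braf lines against 14.2, 13.9 and 12.2 CPM in wildtype, log2 change -3.44 ± 0.7, adjusted p = 0.00195) and Grhl1 (6.37, 2.58 and 0.396 CPM in Braf lines against 25.02, 34.4 and 26.9 CPM in wildtype, log2 change -3.2 ± 0.89, adjusted p = 0.0112), which hold epithelia in their state, were the members that fell. Of mesenchymal genes 2 of 15 rose and 2 fell. Without B47275 4 rose and without B48051 5 rose, and without B52482 4 fell. Fibronectin (Fn1) was at 11190, 5332 and 18620 CPM in the Braf lines, against 129, 83.98 and 292 CPM in wildtype (log2 change 6.12 ± 1.56, adjusted p = 0.00716). N-cadherin (Cdh2) was at 251, 68.8 and 247 CPM in Braf lines against 3.04, 3.67 and 2.92 CPM in wildtype (log2 change 5.88 ± 0.52, adjusted p = 7.47e-06), in all 3 lines and not only in B52482. Thy1 (0.177, 0 and 0.396 CPM in Braf lines against 60.8, 51.3 and 47.1 CPM in wildtype, log2 change -8.08 ± 1.25, adjusted p = 0.000353) and Postn (0.3096, 0.496 and 0.8905 CPM in Braf lines against 48.9, 41.7 and 38.2 CPM in wildtype, log2 change -6.24 ± 1.76, adjusted p = 0.0122), which fibroblasts also express, fell.

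**Figure D3:**
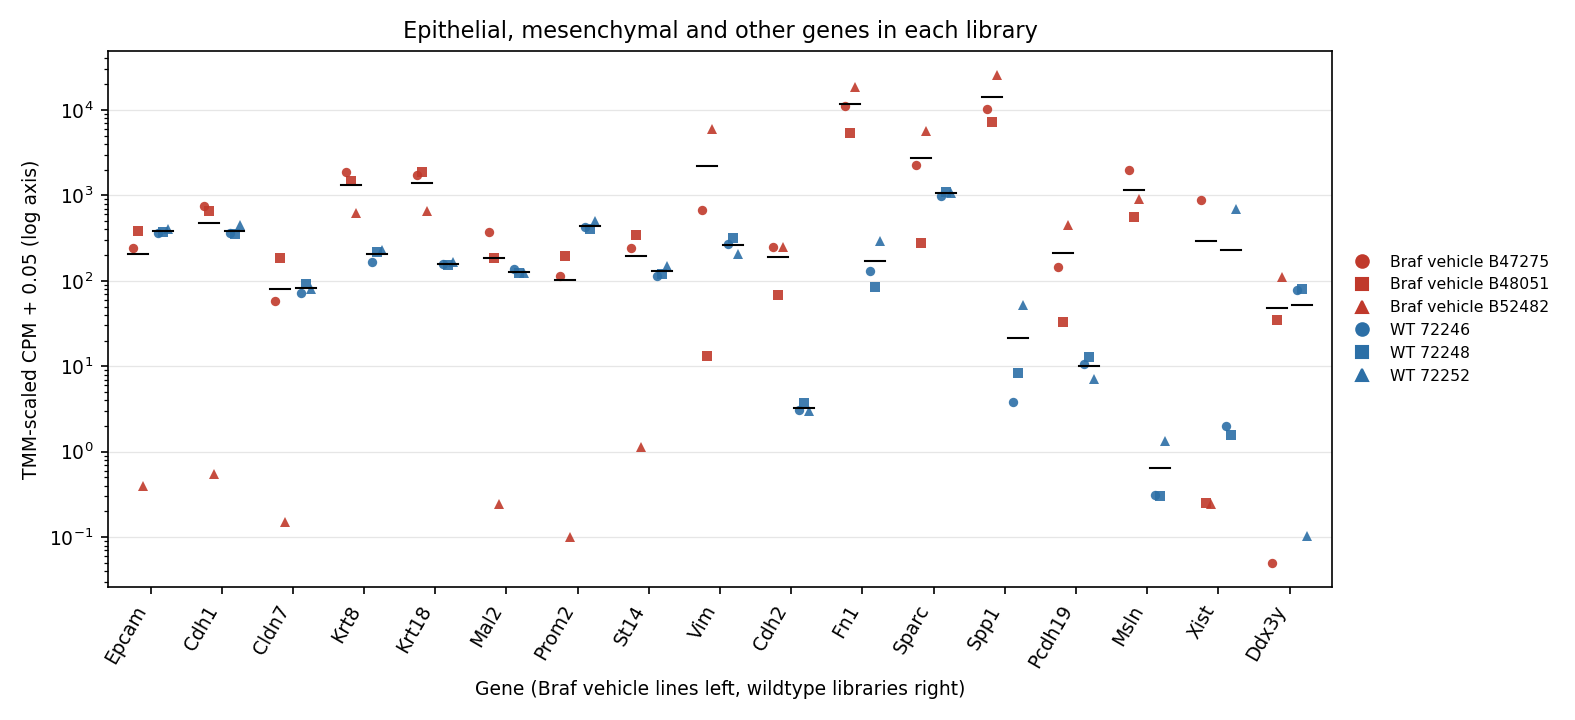
Epithelial, mesenchymal and other genes in each library, as TMM-scaled CPM plus 0.05 on a log axis, Braf vehicle lines in red on the left (circle B47275, square B48051, triangle B52482) and wildtype in blue on the right of each gene, bars at group means. The triangle of B52482 drops below 1 CPM for Epcam, Cdh1, Cldn7, Mal2 and Prom2, and the square of B48051 is the lowest for Vim and Sparc.

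Other genes that split the lines were Irs4, an insulin receptor substrate (229, 0.298 and 0.0495 CPM in Braf lines against 0.8897, 1.21 and 3.57 CPM in wildtype, log2 change 5.34 ± 2.68, adjusted p = 0.119, and -3.39, also not called, without B47275), and Hhip, which binds and holds back hedgehog ligands (41.1, 0.794 and 460.3 CPM in Braf lines against 0.471, 0.503 and 0.162 CPM in wildtype, log2 change 8.76 ± 1.86, adjusted p = 0.00249). Hhip was near wildtype in B48051, and its change was 5.77 without B52482. The retrotransposon-derived Peg10 was at 55.4, 2.33 and 43.4 CPM in Braf lines against 2.46, 3.22 and 2.97 CPM in wildtype (log2 change 3.55 ± 0.82, adjusted p = 0.00411), at wildtype level in B48051.

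Serine and one-carbon metabolism was higher in 13 of 22 members (59.1%) and lower in 2. Phgdh, the entry enzyme of serine synthesis, was even across lines at 273, 244 and 284 CPM in Braf lines, against 19.3, 13.2 and 18.97 CPM in wildtype (log2 change 3.96 ± 0.5, adjusted p = 8.91e-05). The mitochondrial folate enzyme genes Mthfd2 (62.6, 39.5 and 92.4 CPM in Braf lines against 4.66, 3.92 and 4.87 CPM in wildtype, log2 change 3.85 ± 0.63, adjusted p = 0.000498) and Aldh1l2 (57.3, 16.8 and 196 CPM in Braf lines against 1.78, 2.11 and 2.11 CPM in wildtype, log2 change 5.49 ± 1.16, adjusted p = 0.00234) rose. Amt, of glycine cleavage, fell (1.59, 2.48 and 1.29 CPM in Braf lines against 47.05, 37.6 and 40.1 CPM in wildtype, log2 change -4.54 ± 0.44, adjusted p = 1.49e-05). Amino acid transporters moved both ways, 7 of 27 higher and 8 lower, shares near those of all genes. The large neutral amino acid importer Slc7a5 was at 151, 82.2 and 572 CPM in Braf lines against 10.8, 5.48 and 4.87 CPM in wildtype (log2 change 5.25 ± 0.86, adjusted p = 0.000521). The taurine importer Slc6a6 was at 349, 418 and 413 CPM in Braf lines against 57.8, 65.4 and 69.5 CPM in wildtype (log2 change 2.61 ± 0.28, adjusted p = 3e-05). Slc43a2, another neutral amino acid transporter, fell to 12.4, 28.4 and 31.1 CPM in Braf lines, against 646, 452 and 758 CPM in wildtype (log2 change -4.69 ± 0.9, adjusted p = 0.00132).

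Polyamine genes rose in 5 of 15 and fell in none. The spermine oxidase gene Smox was at 85.6, 193 and 136 CPM in Braf lines against 24.8, 27.4 and 23.8 CPM in wildtype (log2 change 2.45 ± 0.33, adjusted p = 0.000149). The rate-limiting Odc1 was at 269, 178 and 260.1 CPM in Braf lines against 92.8, 108 and 109 CPM in wildtype (log2 change 1.19 ± 0.35, adjusted p = 0.0162). The list of NRF2 targets and glutathione genes, which also counts the stress factor NRF2 itself (Nfe2l2) and Keap1, rose in 7 of 20 and fell in 3. The cystine importer Slc7a11 was at 10.6, 66.3 and 98.5 CPM in Braf lines against 2.25, 2.16 and 1.89 CPM in wildtype (log2 change 4.79 ± 0.89, adjusted p = 0.00112). Sulfiredoxin (Srxn1) was at 151, 126 and 187 CPM in Braf lines against 29.9, 41.3 and 29.4 CPM in wildtype (log2 change 2.21 ± 0.29, adjusted p = 0.000133). Malic enzyme Me1, which is abundant in fat, fell to 113, 49.8 and 55.1 CPM in Braf lines, against 205, 194 and 259.8 CPM in wildtype (log2 change -1.6 ± 0.37, adjusted p = 0.00403).

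Prostanoid genes moved in both directions. Ptgs2 (COX-2), the inducible synthase, was at 319, 288 and 142 CPM in the Braf lines, against 0.419, 0.352 and 0.378 CPM in wildtype (log2 change 9.33 ± 0.81, adjusted p = 6.54e-06). Hpgd, which inactivates prostaglandins, had no read in any Braf line, against 43.4, 49.5 and 20.1 CPM in wildtype (at least 798-fold lower). The constitutive synthase gene Ptgs1 was at 31.7, 56.8 and 307 CPM in Braf lines against 21.98, 14.8 and 14.1 CPM in wildtype and was not called (adjusted p = 0.0841). Over the list 11 of 23 fell and 4 rose, with 1 rise left without B48051, WT_72246 or WT_72248 and 2 without B52482. The plasminogen system and membrane serine proteases counted 4 higher of 21, or 7 without B52482. Plaur, the urokinase receptor, was at 60.4, 134 and 130.5 CPM in Braf lines against 1.94, 2.96 and 1.41 CPM in wildtype (log2 change 5.68 ± 0.62, adjusted p = 3.32e-05). Its ligand gene Plau was at 576, 537 and 62.8 CPM in Braf lines against 57.8, 59.8 and 20.5 CPM in wildtype (adjusted p = 0.0719), above wildtype in every line and not called with all libraries, though called without B52482 (3.61, adjusted p = 0.0471).

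Of the oncofetal list 5 of 10 rose, or 3 without B48051. Hmga2, an architectural chromatin protein of embryonic tissue, was at 347, 779 and 634 CPM in the Braf lines, against 5.29, 5.58 and 6.49 CPM in wildtype (log2 change 6.66 ± 0.44, adjusted p = 8.5e-07). Hmga1, which has a near-identical copy in the mouse genome, was at 105, 116 and 370.5 CPM in Braf lines against 7.85, 9.901 and 9.41 CPM in wildtype (log2 change 4.44 ± 0.76, adjusted p = 0.000661). The RNA-binding genes Igf2bp1 (6.55, 45.1 and 0.8905 CPM in Braf lines against 7.28, 4.77 and 11.03 CPM in wildtype, adjusted p = 0.558) and Lin28b (0.354, 6.101 and 0.0989 CPM in Braf lines against 0.105, 0 and 0 CPM in wildtype, adjusted p = 0.0624) were highest in B48051 and not called, Lin28b being called without B52482 (6.32, adjusted p = 0.047). Tert, the telomerase reverse transcriptase, overlapped at 4.51, 8.63 and 2.72 CPM in Braf lines against 7.22, 5.08 and 8.05 CPM in wildtype (adjusted p = 0.642). Imprinted genes fell more than they rose (12 lower and 3 higher of 30). The linked fetal growth genes H19 (1.15, 0.546 and 1.19 CPM in Braf lines against 76.2, 40.8 and 233 CPM in wildtype, log2 change -6.91 ± 1.41, adjusted p = 0.00189) and Igf2 (1.55, 0.446 and 0.346 CPM in Braf lines against 26.5, 16.1 and 20.0 CPM in wildtype, log2 change -4.72 ± 1.08, adjusted p = 0.00381) were both lower. Grb10, an adaptor that dampens insulin signalling (0.0442, 0.298 and 0.9895 CPM in Braf lines against 49.4, 73.3 and 113 CPM in wildtype, log2 change -7.46 ± 2.11, adjusted p = 0.0122), was lower as well. Nnat, another imprinted gene, was too (0.929, 2.38 and 0.792 CPM in Braf lines against 33.3, 30.1 and 26.97 CPM in wildtype, log2 change -4.46 ± 0.44, adjusted p = 1.68e-05).

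Signalling pathways that act between cells were mixed. Notch components fell in 7 of 21 and rose in 2. The Notch target Hey1 was at 0.0442, 0.0992 and 0.0495 CPM in Braf lines against 15.1, 23.2 and 20.3 CPM in wildtype (log2 change -8.13 ± 0.86, adjusted p = 2.53e-05). The ligand gene Dll4, which is strong in endothelium, was at 0.221, 1.74 and 0.396 CPM in Braf lines against 21.6, 17.5 and 15.4 CPM in wildtype (log2 change -4.53 ± 0.94, adjusted p = 0.00217). Jag1, another ligand (18.1, 136 and 69.96 CPM in Braf lines against 42.1, 31.7 and 40.8 CPM in wildtype, adjusted p = 0.327) overlapped. Hedgehog genes gave 3 higher and 4 lower of 12, or 2 lower without WT_72248. Smo, the transducer, was at 137, 156 and 158 CPM in Braf lines against 61.02, 60.2 and 74.3 CPM in wildtype (log2 change 1.21 ± 0.17, adjusted p = 0.000157). The factor gene Gli3 was at 44.1, 32.9 and 55.01 CPM in Braf lines against 4.501, 3.67 and 3.51 CPM in wildtype (log2 change 3.5 ± 0.51, adjusted p = 0.000258). Ptch1, a receptor and target, overlapped at 47.6, 39.7 and 48.8 CPM in Braf lines against 35.9, 24.8 and 49.1 CPM in wildtype (adjusted p = 0.402). Clock genes were lower in 8 of 19, among them Npas2 (0.0442, 0.248 and 0.0989 CPM in Braf lines against 32.4, 22.1 and 17.2 CPM in wildtype, log2 change -7.47 ± 1.2, adjusted p = 0.000754) and Nr1d1 (16.4, 18.8 and 38.1 CPM in Braf lines against 129, 88.9 and 195 CPM in wildtype, log2 change -2.5 ± 0.45, adjusted p = 0.000909). The core activator Arntl overlapped at 35.03, 39.4 and 31.2 CPM in Braf lines against 42.02, 31.1 and 26.3 CPM in wildtype (adjusted p = 0.831), and Cry1 was higher (16.3, 17.4 and 16.9 CPM in Braf lines against 7.48, 7.09 and 6.22 CPM in wildtype, log2 change 1.28 ± 0.24, adjusted p = 0.0012). The labels do not give the time of day of collection.

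Potassium channel genes fell widely. Of 62 potassium channel genes tested, 31 were lower (50%, against 24.9% of all genes) and 4 higher. Kcnh3, a voltage-gated channel best known from brain, was at 2.698, 0.149 and 0.0495 CPM in the Braf lines against 883, 869 and 1074 CPM in wildtype (log2 change -9.9 ± 1.51, adjusted p = 0.000326). Kcnk1, a leak channel, was at 132, 133 and 38.4 CPM in Braf lines against 526, 608 and 654 CPM in wildtype and was not called (adjusted p = 0.0918), although its groups did not overlap. Kcnj8, of pericytes, had no read in any Braf line. The calcium-activated Kcnn4 rose, at 2.56, 78.5 and 75.2 CPM in Braf lines against 1.62, 1.36 and 1.14 CPM in wildtype (log2 change 5.24 ± 1.07, adjusted p = 0.00193), with B47275 near wildtype. The electrically silent subunit gene Kcnf1 was at 32.7, 6.498 and 36.5 CPM in Braf lines against 0, 0.101 and 0 CPM in wildtype (adjusted p = 0.0013). Sodium channels were lower in 6 of 10 and higher in 1. Among TRP channels 3 of 16 rose and 5 fell, and the irritant sensor Trpa1 was at 40.4, 167 and 76.5 CPM in the Braf lines, against 0.105, 0.0503 and 0.324 CPM in wildtype (log2 change 9.18 ± 1.44, adjusted p = 0.000379).

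Genes of water, acid and metal handling fell in several families. Carbonic anhydrases were lower in 8 of 12 and higher in none, with muscle and fat Car3 at 0.221, 0 and 0.0989 CPM in Braf lines against 712, 1086 and 653 CPM in wildtype (log2 change -12.79 ± 0.79, adjusted p = 2.32e-06). Broadly expressed Car2 was at 2.43, 3.47 and 9.499 CPM in Braf lines against 121, 95.3 and 134 CPM in wildtype (log2 change -4.51 ± 0.86, adjusted p = 0.00127). Aquaporins were lower in 5 of 7. Metallothioneins, which bind zinc and copper, were lower in 3 of 3: Mt1 was at 79.7, 83.1 and 63.1 CPM in Braf lines against 802, 551 and 566 CPM in wildtype (log2 change -3.09 ± 0.58, adjusted p = 0.00113). Mt2 was at 47.2, 18.4 and 40.6 CPM in Braf lines against 755, 394 and 574 CPM in wildtype (log2 change -4.02 ± 0.98, adjusted p = 0.00558). Gap junction genes were mixed, 2 higher and 5 lower of 9. Gja1 (connexin 43) was higher at 281, 286 and 589 CPM in Braf lines against 46.2, 53.98 and 34 CPM in wildtype (log2 change 3.11 ± 0.34, adjusted p = 3.29e-05). Gjb1 (connexin 32) was lower at 0, 3.67 and 0 CPM in Braf lines against 429, 298 and 412 CPM in wildtype (log2 change -8.28 ± 1.85, adjusted p = 0.0122). Gjb1 reads in the Braf lines came from B48051 alone, and without that line the fitted change was -16.01.

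Detoxifying enzymes leaned to falls. Cytochrome P450 genes were lower in 14 of 32 tested of 91, with Cyp2d22 at 1.42, 0.0496 and 1.34 CPM in Braf lines against 39.4, 31.4 and 32.6 CPM in wildtype (log2 change -5.19 ± 1.48, adjusted p = 0.0128). Glutathione transferases were lower in 9 of 21, or 5 without WT_72248. Gstt2 (0.486, 3.97 and 0.0495 CPM in Braf lines against 108, 121 and 98.2 CPM in wildtype, log2 change -6.18 ± 1.32, adjusted p = 0.00254) and Gsta3 (0.177, 3.17 and 0.247 CPM in Braf lines against 82.7, 63.4 and 81.2 CPM in wildtype, log2 change -5.98 ± 1.14, adjusted p = 0.00132) fell. The membrane-bound Mgst2 rose (1.504, 19.8 and 39.2 CPM in Braf lines against 0.419, 0.503 and 0.432 CPM in wildtype, log2 change 5.46 ± 1.28, adjusted p = 0.00432). Complement genes were lower in 13 of 18 and higher in none, with 1 higher at an unadjusted p under 0.05 and none called by DESeq2. That list shares C1qa, C1qb, C1qc and Cfd with the macrophage and adipocyte lists, and C7 with the fibroblast list. The complement inhibitor Serping1 fell to 0, 0.0496 and 0.0495 CPM in Braf lines, against 242, 257 and 129 CPM in wildtype (adjusted p = 5.38e-05). Clusterin (Clu) was at 321, 886 and 6.98 CPM in Braf lines against 48.1, 48.4 and 44.5 CPM in wildtype, low in B52482 only (adjusted p = 0.169).

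Several small calcium- and sugar-binding proteins rose. S100a6, a calcium-binding protein of proliferating cells, was at 869, 2364 and 1858 CPM in the Braf lines, against 87.97, 108 and 64.4 CPM in wildtype (log2 change 4.29 ± 0.37, adjusted p = 6.12e-06). Its relatives S100a1 (77.4, 29.1 and 61.8 CPM in Braf lines against 589, 701 and 605 CPM in wildtype, log2 change -3.49 ± 0.54, adjusted p = 0.000336) and S100b fell, and S100a11 overlapped (adjusted p = 0.462). Annexin genes Anxa1 (3133, 1497 and 878 CPM in Braf lines against 82.9, 99.4 and 72.4 CPM in wildtype, log2 change 4.43 ± 0.56, adjusted p = 1e-04) and Anxa2 (1049, 1366 and 1115 CPM in Braf lines against 283, 293 and 264 CPM in wildtype, log2 change 2.07 ± 0.41, adjusted p = 0.00149) rose. Anxa5 overlapped (593, 348 and 710.1 CPM in Braf lines against 554, 616 and 602 CPM in wildtype, adjusted p = 0.756). Galectin 3 (Lgals3), used as a marker of human thyroid cancer, was at 298, 549 and 166 CPM in Braf lines against 12.9, 12.01 and 18.2 CPM in wildtype (log2 change 4.55 ± 0.91, adjusted p = 0.00164). Galectin 1 (Lgals1) was at 1130, 740.3 and 1608 CPM in Braf lines against 198, 217 and 188 CPM in wildtype (log2 change 2.53 ± 0.36, adjusted p = 0.00023). Of all S100 genes 3 of 13 rose, of annexins 3 of 10 and of galectins 2 of 7, shares near that of all genes.

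Developmental factor and adhesion families moved both ways. Genes of the Iroquois, sine oculis and Eya families, which pattern embryonic fields, were higher in 5 of 12: Irx1 was at 4.51, 18.9 and 44.4 CPM in Braf lines against 0.105, 0.201 and 0.324 CPM in wildtype (log2 change 6.71 ± 1.0, adjusted p = 0.000289). Irx2 was at 20.1, 32.9 and 30.1 CPM in Braf lines against 0.994, 2.66 and 1.41 CPM in wildtype (log2 change 4.03 ± 0.59, adjusted p = 0.000252). Of SOX factors 4 of 15 tested rose (26.7%) and 6 fell (40%). With 1 library left out, 1 to 3 of them rose and 4 to 5 fell. Sox4, a progenitor factor, was higher (50.8, 154 and 69.3 CPM in Braf lines against 13.8, 12.9 and 17.1 CPM in wildtype, log2 change 2.65 ± 0.46, adjusted p = 0.00076). Sox9 overlapped (93.7, 131 and 165 CPM in Braf lines against 127, 149 and 157 CPM in wildtype, adjusted p = 0.891). Klf5 rose (31.6, 52.7 and 37.1 CPM in Braf lines against 6.07, 5.08 and 6.33 CPM in wildtype, log2 change 2.79 ± 0.7, adjusted p = 0.00647). Klf9, a target of thyroid hormone, fell (24.02, 43.3 and 24.04 CPM in Braf lines against 126, 156 and 151 CPM in wildtype, log2 change -2.25 ± 0.35, adjusted p = 0.000345). Protocadherins, cell recognition molecules best known from brain, were higher in 12 of 33, or 7 without B52482. Pcdh19 was at 146, 32.7 and 449 CPM in Braf lines against 10.6, 12.7 and 7.08 CPM in wildtype (log2 change 4.37 ± 0.84, adjusted p = 0.00134). Pcdh7 was at 188, 70.5 and 312 CPM in Braf lines against 7.798, 9.65 and 6.49 CPM in wildtype (log2 change 4.58 ± 1.13, adjusted p = 0.0058). The clustered protocadherin genes are close in sequence, so reads may be split among them. Of the adhesion GPCRs, 7 of 23 fell and 4 rose, or 2 rose without B52482, with Gpr126 (Adgrg6) at 143, 38.1 and 124 CPM in Braf lines against 3.19, 1.91 and 3.08 CPM in wildtype (log2 change 5.22 ± 0.91, adjusted p = 0.000735).

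**Figure D4:**
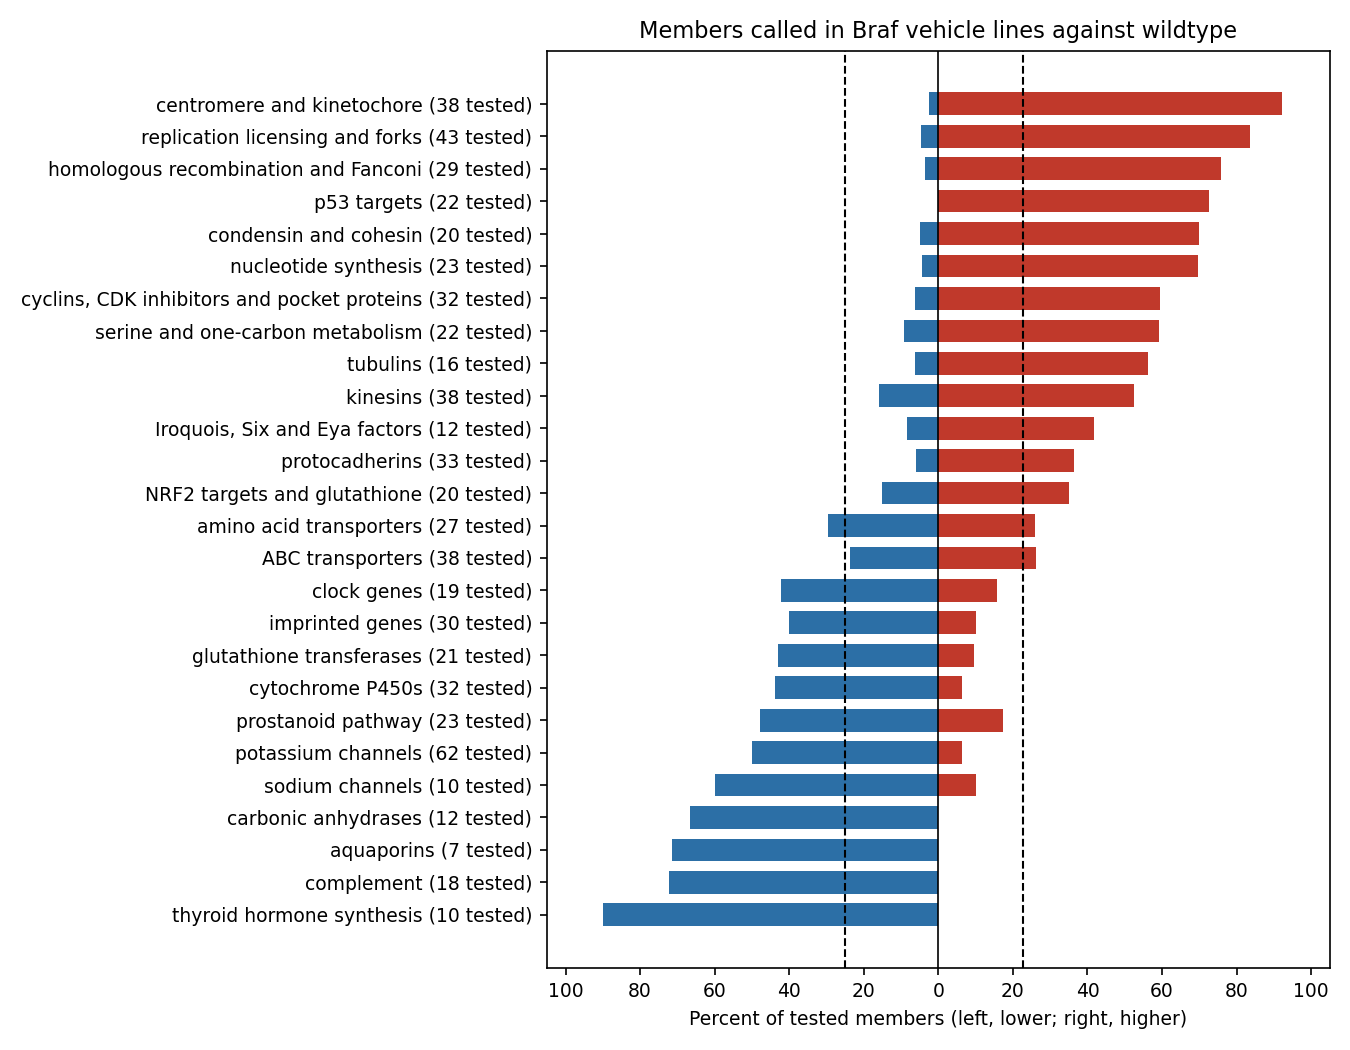
Share of the tested members of each list called lower (blue, left of 0) and higher (red, right of 0) in Braf vehicle lines against wildtype, in percent, with the number tested beside each name. Dashed lines mark the shares of all genes, 24.9% lower and 22.6% higher; cell division lists reach far past the right line, and channels, carbonic anhydrases, complement and thyroid hormone synthesis past the left.

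Other families moved both ways or had few members high enough to test. ABC transporters rose in 10 of 38 and fell in 9, and Kruppel-like factors rose in 4 and fell in 4 of 14. Aldehyde dehydrogenases rose in 2 and fell in 5 of 18. GABA genes rose in 2 and fell in 3 of 11; the GABA-synthesizing Gad2 was at 6.46, 5.16 and 14.6 CPM in the Braf lines and had no read in wildtype, at least 166-fold higher. The list of PRAME, MAGE, Rhox and Xlr genes had 8 of 90 members high enough to test, and gasdermins 2 of 11. No member of either was called. The first list summed to 641, 422 and 678 CPM in Braf lines against 598, 534 and 630 CPM in wildtype. DESeq2, which tested more genes, called Xlr4b of that list lower and Gsdma of the gasdermins higher, and edgeR's filter left both out. Of mucins and relatives 3 of 7 tested rose; mesothelin (Msln), a surface protein of mesothelium and several carcinomas, was at 2001, 556 and 904 CPM in the Braf lines, against 0.262, 0.251 and 1.297 CPM in wildtype (log2 change 10.9 ± 1.25, adjusted p = 4.6e-05).

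Outside the lists, the largest rises included secreted and signalling genes. Osteopontin (Spp1), a secreted phosphoprotein of bone and tumors, was at 10110, 7222 and 25460 CPM in the Braf lines, against 3.77, 8.39 and 52.7 CPM in wildtype (log2 change 9.37 ± 1.17, adjusted p = 8.92e-05). Prkg2, a cyclic GMP-dependent kinase, was at 126, 277 and 574 CPM in Braf lines against 0.837, 1.11 and 1.57 CPM in wildtype (log2 change 8.12 ± 0.64, adjusted p = 2.98e-06). Bdnf, a neurotrophin, was at 32.5, 24.6 and 108 CPM in Braf lines against 0.157, 0.251 and 0.162 CPM in wildtype (log2 change 8.12 ± 0.78, adjusted p = 1.36e-05). The Wnt ligand gene Wnt7b was at 269, 595 and 405 CPM in Braf lines against 1.99, 0.201 and 2.65 CPM in wildtype (log2 change 8.04 ± 1.11, adjusted p = 0.00017). The adhesion molecule Nrcam was at 89.6, 91.5 and 1130 CPM in Braf lines against 1.15, 0.704 and 1.68 CPM in wildtype (log2 change 8.53 ± 2.0, adjusted p = 0.0044), highest in B52482. The factor gene Onecut2 was at 18.9, 72.5 and 10.2 CPM in Braf lines against 0, 0.0503 and 0.2703 CPM in wildtype (log2 change 8.26 ± 1.35, adjusted p = 0.000501). The TMEM16 family gene Ano3 was at 42.1, 108 and 65.5 CPM in Braf lines against 0.209, 0.352 and 0.216 CPM in wildtype (log2 change 8.08 ± 1.28, adjusted p = 0.000409). Klra4, named for natural killer cells, was at 76.4, 38.5 and 46.01 CPM in the Braf lines, against 0.157, 0.151 and 0 CPM in wildtype (log2 change 8.94 ± 1.28, adjusted p = 0.000215), and belongs to a family of near-identical copies, so its reads are uncertain. Mcpt8, named for basophils, was at 52.1, 39.7 and 16.2 CPM in Braf lines, against 0.0523, 0 and 0.108 CPM in wildtype (adjusted p = 0.000796).

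The largest falls outside the lists were of the secreted peptide gene Grp, which neuroendocrine cells make (no read in the Braf lines, against 536, 81.2 and 466 CPM in wildtype, at least 7470-fold lower), and of further muscle and fat genes: Myl1, Myoz1, Myot and Actn2 of the sarcomere and Pck1 of gluconeogenesis and glyceroneogenesis had no read in any Braf line. The carboxylesterase gene Ces1d was at 0.0885, 0.0496 and 0.198 CPM in Braf lines, against 966, 905 and 929 CPM in wildtype (log2 change -12.96 ± 1.15, adjusted p = 7.47e-06). Slc4a5, an electrogenic bicarbonate cotransporter of choroid plexus and kidney, was at 0.177, 0.0496 and 0 CPM in Braf lines, against 591, 525 and 703 CPM in wildtype (log2 change -12.81 ± 0.8, adjusted p = 5.86e-07). The secreted Egfl6 (67.2, 65.4 and 75.4 CPM in wildtype) and the apolipoprotein gene Apoc1 (49.8, 59.5 and 41.2 CPM in wildtype) had no read in the Braf lines, and were at least 1450-fold and 1060-fold lower.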

How the data were processed

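Per the labels' protocols, TRIzol was used for RNA and the TruSeq RNA kit for the libraries. The deposited table holds raw gene counts, whole numbers per gene and library; per the submitters' processing notes the tools were STAR 2.4, HTSeq 0.6.1 and DESeq2 with genome build mm9. The strand setting of the counting is not given in the labels, so overlapping and antisense genes cannot be told apart. All 27 columns matched a label, and 0 per-sample columns were left out.

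Tests used edgeR 4.0.16 under R 4.3.3 (filterByExpr, TMM, quasi-likelihood F test), fitted to the 15 libraries without CKI in 5 groups (residual degrees of freedom 10), with Benjamini-Hochberg adjustment over 16065 of 33924 genes. Calls use an adjusted p under 0.05, and size calls a log2 change of at least 2. A group at 0 was set at a floor of 3 counts over its 3 libraries together, and such folds cover counting error only. The fit was tested on simulated data, where it missed most of the smaller known changes and some of the larger ones. Alternatives were RLE size factors, total counts alone, DESeq2 1.42.0, 2 other low-count filters, 6 or 27 libraries and leaving out each library. Promoter letters come from RefSeq on GRCm38.p6; 32851 windows cover 27025 symbols.

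The groups, gene lists and families were chosen with earlier results of these data known. Named genes are list members, preferring per list up to 5 called each way whose mean log2 CPM reached 2 and up to 3 uncalled with the highest mean, the thyroid list members, and outside the lists genes from the 15 largest rises and falls without overlap whose mean log2 CPM reached 4. The 10 widest ranges among Braf lines use the same level. Any other list member could also be named. Braf, Xist, Ddx3y, Spp1 and mt-Co1 serve the library checks. Cdc20, Plk1 (in a figure only), Arid1a and Smarcb1 are in none of these sets and were added by hand. A few genes that this rule names are not reported here.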

Additional observations from a re-analysis of the deposited data

How the results depend on the processing

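No paired analysis was possible because the Braf vehicle lines and the wildtype libraries share no replicate label. Calls kept their direction under every alternative run: no gene called here was called with the opposite sign. The number called was 6272 to 8027 over all alternatives, and 6272 to 7302 with 1 library left out; higher calls were 3054 to 4724 and lower calls 3218 to 4435, with 3054 to 3431 and 3218 to 3871 when 1 library was left out. At least 4-fold calls were 977 to 1346 higher and 2152 to 2876 lower. Of the 7644 genes called, 7399 were also called with RLE size factors, 7253 with DESeq2 and 7159 with all 27 libraries, and 6675 of the 7388 tested with only the 6 compared libraries. Genes with too few reads for the filter were not tested. Changes carried by 1 or 2 lines, such as those of Vim and Cdh16, pass or fail with the library left out. Fitted on the 6 compared libraries alone, Hhex, Krt8, Krt18, Kcnk1, Cd34, Perp, Sesn1, Ptgs1, Ecm1, Pkhd1l1 and Plau, not called with 15, were called (adjusted p between 0.00219 and 0.035), and Kcnj16, Braf and mt-Co1 were not (0.0546 to 0.0982). Without TMM, Pax8, Adcy6, Adcy9, Braf and Cftr were not called (0.0509 to 0.133), and Ecm1, Lin28b, Twist2 and Vim were (0.0387 to 0.0495). With all 27 libraries, Adcy9, Braf, Cftr, Kcnj16, Pax8 and Wscd2 were not called (0.0621 to 0.118), and with no filter on low counts Adcy6, Adcy9, Braf, Pax8 and Wscd2 were not (0.0566 to 0.103). RLE size factors called Nkx2-1 (0.049). DESeq2 did not call Gjb1 (0.169), and did call Nkx2-1, Vim, Krt18, Kcnk1, Fhl1, Ecm1, Lin28b, Plau, Twist2 and Irs4 (0.0183 to 0.0492). Of the named genes, 22 changed sign under an alternative, none of them called with all libraries; Col2a1 and Matn3 were called with the other sign without WT_72252. With 1 library left out, the log2 changes were -0.32 to 0.15 for Anxa5, -0.07 to 0.15 for Arid1a, -0.22 to 0.87 for Cdh1, -1.47 to 0.58 for Cldn7, -3.45 to 4.41 for Col2a1, -0.05 to 0.89 for Ctsb, -1.6 to 0.47 for Ddx3y, -0.35 to 0.01 for Gnas, -1.03 to 1.76 for Igf2bp1, -3.39 to 6.26 for Irs4, -1.74 to 0.57 for Mal, -0.45 to 1.14 for Mal2, -0.47 to 1.24 for Matn2, -3.18 to 5.53 for Matn3, -1 to 0.94 for Notch3, -1.55 to 1.59 for Pde8b, -2.12 to 0.55 for Slc4a4, -0.08 to 0.69 for Sorbs2, -0.35 to 0.05 for Sox9, -0.06 to 1.2 for St14 and -10.13 to 7.49 for Xist. Without TMM, they turned to 0.12 for Anxa5, 0.2 for Arid1a, 0.3 for Cldn7, 0 for Ddx3y, 0.03 for Gnas, 0.29 for Mal, 0.31 for Slc4a4, 0.07 for Smarcb1 and 0.08 for Sox9. With no low-count filter, they turned to 0.05 for Anxa5, 0.09 for Arid1a, 0.11 for Cldn7, 0.03 for Ddx3y, 0.1 for Mal and 0.11 for Slc4a4. With all 27 libraries, they turned to 0.01 for Arid1a, 0.05 for Cldn7, 0.04 for Mal and 0.05 for Slc4a4. On the 6 libraries, they turned to 0.01 for Cldn7, 0 for Mal and 0.02 for Slc4a4.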
